A study of Mus musculus with 32 samples.

Results

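The 10 genes described here serve antigen presentation on major histocompatibility complex (MHC) class II molecules. They were chosen by symbol from the gene lists of the 2 expression tables, with 26560 genes for lineage-negative (Lin-) cells and 25887 for CD11b+ cells, and all 10 were in both. They are H2-Aa, H2-Ab1 and H2-Eb1 (class II chains), H2-DMa and H2-DMb1 (chains of the peptide editor H2-DM), Cd74 (the invariant chain), Ciita (the class II transactivator), and Cd80, Cd86 and Cd40 (costimulatory molecules). Enhanced crosslinking and immunoprecipitation (eCLIP) peaks of the RNA-binding protein IGF2BP3 were taken as lying on a gene when the peak name began with its Ensembl gene identifier.

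The mouse model was leukemia driven by MLL-Af4, a fusion oncogene delivered by a retrovirus. Lin- cells were bone marrow cells depleted of mature lineages, transduced with MLL-Af4 and selected with G418. Per the study's methods, CD11b+ cells were magnetically selected from spleen tumors of leukemic mice. The names of the eCLIP libraries begin with bm for both cell types, so for eCLIP the tissue rests on the methods. RNA sequencing covered 12 libraries, 3 of wild type (WT) and 3 of Igf2bp3-deleted (I3KO) cells for each cell type, and all of them carried MLL-Af4. The I3KO mice descended from a cross of a floxed Igf2bp3 allele with Vav1-Cre in which the deletion had passed to the germline, so the deletion was not limited to blood cells. The eCLIP part held 10 libraries of WT cells with MLL-Af4, 6 of Lin- cells (3 biological and 3 technical) and 4 of CD11b+ cells (2 biological and 2 technical). Each eCLIP library had its own size-matched input, RNA fragments of the same size that had not been immunoprecipitated.

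In class II presentation, Cd74 holds the peptide groove of a new class II dimer closed, proteases degrade it, and H2-DM exchanges the remaining fragment for a peptide. CIITA switches on most genes of this pathway. CD80 and CD86 deliver the second signal to T cells, and CD40 receives help from them. Mice of the C57BL/6 background do not show I-E at the surface because they lack a functional alpha chain, although H2-Eb1 encodes a beta chain.

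The filtered eCLIP libraries had between 4040 and 10042 peaks (Lin-) or 7085 and 10054 peaks (CD11b+), and the inputs 217 to 1885. Only the authors' mean over the 6 libraries of each expression table was used, so no level below has a replicate error, WT and I3KO are not separated, and the loss of Igf2bp3 could not be checked by library. The pooled mean of Igf2bp3 was 2041 in the Lin- table and 1355 in the CD11b+ table. Itgam, which encodes CD11b, had a mean of 17.0 in the CD11b+ table although 23 filtered CD11b+ peaks lay on it. Its annotation overlaps that of another gene on the same strand, so its level is uncertain. Itgam was absent from the Lin- table, so its level could not be compared between the cell types, and 2 filtered Lin- peaks lay on it. Of the other monocyte and macrophage markers, 3 were higher in the CD11b+ than in the Lin- table, Lyz2 (72146 and 20990), Csf1r (15008 and 7910) and Adgre1 (2474 and 1083), and Fcgr1 was lower (35.5 and 166).

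Sequences are shown for 4 of the 7 peak regions on the members, as examples of an exon end, a CA repeat and purine-rich intron stretches. Each of these regions had a peak in only 1 biological library. The sequences are from the RefSeq copy of GRCm38.p6 (mm10), 5′ to 3′ on the strand of the transcript. In the H2-DMa region the capitals mark the bases past the end of the coding exon, and in the Cd86 region they mark CACA.
H2-DMa, chr17:34135706-34135760, plus strand, coding exon, Lin-: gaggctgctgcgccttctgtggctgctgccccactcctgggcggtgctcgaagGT
Cd86, chr16:36633406-36633463, minus strand, intron, CD11b+: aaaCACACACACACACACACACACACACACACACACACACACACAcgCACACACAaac
Cd40, chr2:165056390-165056453, plus strand, intron, CD11b+: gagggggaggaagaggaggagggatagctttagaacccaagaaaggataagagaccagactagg
Cd40, chr2:165065243-165065300, plus strand, intron, CD11b+: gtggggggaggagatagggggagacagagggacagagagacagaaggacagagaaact

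IGF2BP3 peaks lay on 4 of the 10 members, 12 peaks in all. In Lin- cells 2 members had a filtered peak, Cd74 and H2-DMa. In CD11b+ cells 3 members had one, Cd74, Cd86 and Cd40. No filtered peak in any library lay on H2-Aa, H2-Ab1, H2-Eb1, H2-DMb1, Ciita or Cd80. Of all genes in the tables, 26.5% had at least 1 filtered Lin- peak and 25.6% at least 1 filtered CD11b+ peak, a background that includes genes with little or no expression. Among genes with a mean of at least 10, as all 10 members had, the shares were 39.8% and 37.1%. A peak in at least 2 biological libraries was found on 1 Lin- member, Cd74, against 13.7% of all genes, and on 0 CD11b+ members, against 10.2%. A peak with a CLIPper p below 0.001 was found on 2 Lin- members, against 13.9% of all genes, and on 1 CD11b+ member, Cd40, against 14.2%. Over the biological libraries, leaving out Lin- replicate 2 left 1 Lin- member (Cd74), and leaving out CD11b+ replicate 1 or 2 left 1 CD11b+ member (Cd86 or Cd40).

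The share of genes with a peak was larger among abundant genes. At a mean of at least 100 it was 51.9% in the Lin- table, where 2 of 9 members had a peak, and 47.9% in the CD11b+ table, where 3 of 9 did. Among Lin- genes with a mean of at least 1000, 76.5% had a peak, and of the 5 members at that level 2 did, leaving out H2-Aa, H2-Ab1 and H2-Eb1. Among CD11b+ genes at that level 68.4% had a peak, and of the 3 members 1 did, Cd74. These level classes were added after the data had been seen, and with so few members the shares are descriptions.

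**Figure D1:**
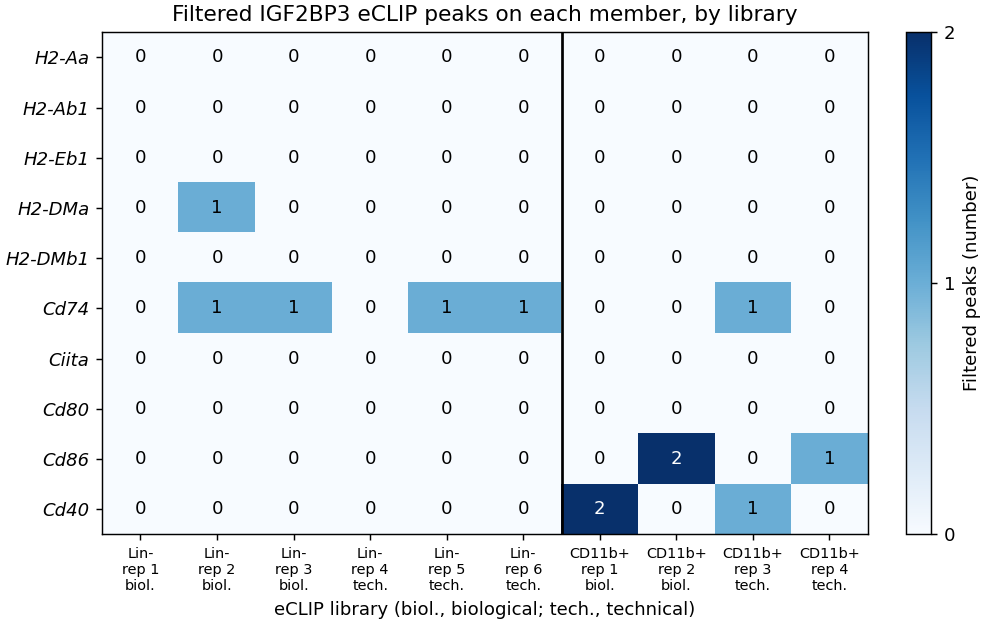
Filtered IGF2BP3 eCLIP peaks on each member (rows) in each eCLIP library (columns), as numbers and by colour. Cd74 has 1 peak in 4 of the 6 Lin- libraries, Cd86 and Cd40 have peaks only in CD11b+ libraries, and 6 members have 0 in every library.

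By library, Lin- biological replicates 1, 2 and 3 held 0, 2 and 1 member peaks, and technical replicates 4, 5 and 6 held 0, 1 and 1. CD11b+ biological replicates 1 and 2 held 2 each, and technical replicates 3 and 4 held 2 and 1. As a share of the library this was 1.05 ± 0.9999 member peaks per 10000 filtered peaks in Lin- cells (SD, n = 3 biological) and 2.17 ± 0.25 in CD11b+ cells (SD, n = 2 biological). The groups of biological libraries overlapped, since Lin- replicate 2 had 1.99 and CD11b+ replicate 2 also had 1.99. The difference of 1.12 per 10000 did not pass an exact two-sided permutation test (p = 0.3, where 0.1 is the smallest that 3 against 2 libraries can give), and it reversed to -1.04 when only peaks with a CLIPper p below 0.001 were counted. Without Lin- replicate 1 it was 0.597 (exact permutation p = 0.667). Lin- replicate 1, with 0 of 7361 peaks, allows a share of up to 4.08 per 10000 by the limit of 3 counts, and its exact two-sided 95% interval reached 5.01. The exact interval of CD11b+ replicate 1 ran from 0.284 to 8.48. Such intervals cover counting error only.

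No peak of any input library lay on a member, before any filter. The 5 biological eCLIP libraries had 1.30 member peaks per 10000 called peaks against 0 in their inputs, and 4 of the 5 were above their input (exact two-sided permutation test, p = 0.0476). With each eCLIP library paired to its own input the exact sign-flip p was 0.125, and leaving out Lin- replicate 2, Lin- replicate 3, CD11b+ replicate 1 or CD11b+ replicate 2 gave p = 0.143 by the exact permutation test. The inputs held few peaks and had been called with other settings. A count of 0 in the 5 inputs of this test allows 15.9 to 22.5 member peaks per 10000, above every eCLIP value. Over all inputs this limit ran up to 138. A lower share in the inputs was therefore not detectable at this number of peaks.

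Cd74 carried the peak seen in most libraries. In Lin- cells it lay in the 5′ UTR within the first exon (chr18:60803848-60804010, plus strand), between 2 and 77 bases after the annotated start. Biological replicates 2 and 3 and technical replicates 5 and 6 had it, and replicates 1 and 4 did not. The number that closes each peak name, read here as the peak's reads because the headers do not define it, was 31 in replicate 2 and 28 in replicate 5, but 6 in replicate 3 and 4 in replicate 6. The value of 31 was at the 88.7th percentile of all filtered peaks in replicate 2, and the value of 6 at the 65.9th in replicate 3. The CLIPper p was 3.3e-25 in replicate 2 and 0.000599 in replicate 3. Of all Lin- regions, 4.68% had their midpoint in a 5′ UTR. RefSeq masks 77.6% of the merged Cd74 region as repeats, and whether reads were placed uniquely in it was not tested.

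In CD11b+ cells the only Cd74 peak lay elsewhere, in the 3′ UTR (chr18:60812242-60812276). It was in technical replicate 3 alone, with 4 reads and a CLIPper p of 0.0179, and in neither biological library. Of all CD11b+ regions, 6.91% had their midpoint in a 3′ UTR.

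H2-DMa had 1 peak, in Lin- biological replicate 2, with 6 reads and a CLIPper p of 0.00085. The peak ran over the 3′ end of a coding exon (chr17:34135182-34135758) and 2 bases into the intron, so the sequence above ends in the GT of the splice donor. Of all Lin- regions, 8.19% had their midpoint in a coding exon. No other library had a peak on H2-DMa, and H2-DMb1, the gene for its partner chain, had none. H2-DMb1 is a close paralog of H2-DMb2, which had 2 CD11b+ peaks, so the split between these paralogs is uncertain.

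Cd86 had 3 peaks in 2 regions, all in its first intron of 36928 bases and all in CD11b+ cells. The region nearer the gene start was found in biological replicate 2 with 5 reads and in technical replicate 4 with 4 reads. The other region, in biological replicate 2 with 4 reads and a CLIPper p of 0.0443, is a run of CA repeats, as the printed sequence shows. Biological replicate 1 and technical replicate 3 had neither. Both regions are wholly within sequence that RefSeq masks as repeats. Whether reads were placed uniquely there was not tested.

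Cd40 also had 3 peaks in 2 regions, each in an intron and each in CD11b+ cells. The downstream region was found in biological replicate 1 with 8 reads and a CLIPper p of 0.000219, and in technical replicate 3 with 4 reads and a p of 0.0293. It lay in an intron of 2941 bases, and 98.3% of it was masked. The other region was found in biological replicate 1 alone, with 5 reads and a p of 0.0203, 662 bases into the first intron. Replicates 2 and 4 had no Cd40 peak. Purines made up 79.7% of the upstream Cd40 sequence and 86.2% of the downstream one, and neither holds CACA.

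**Figure D2:**
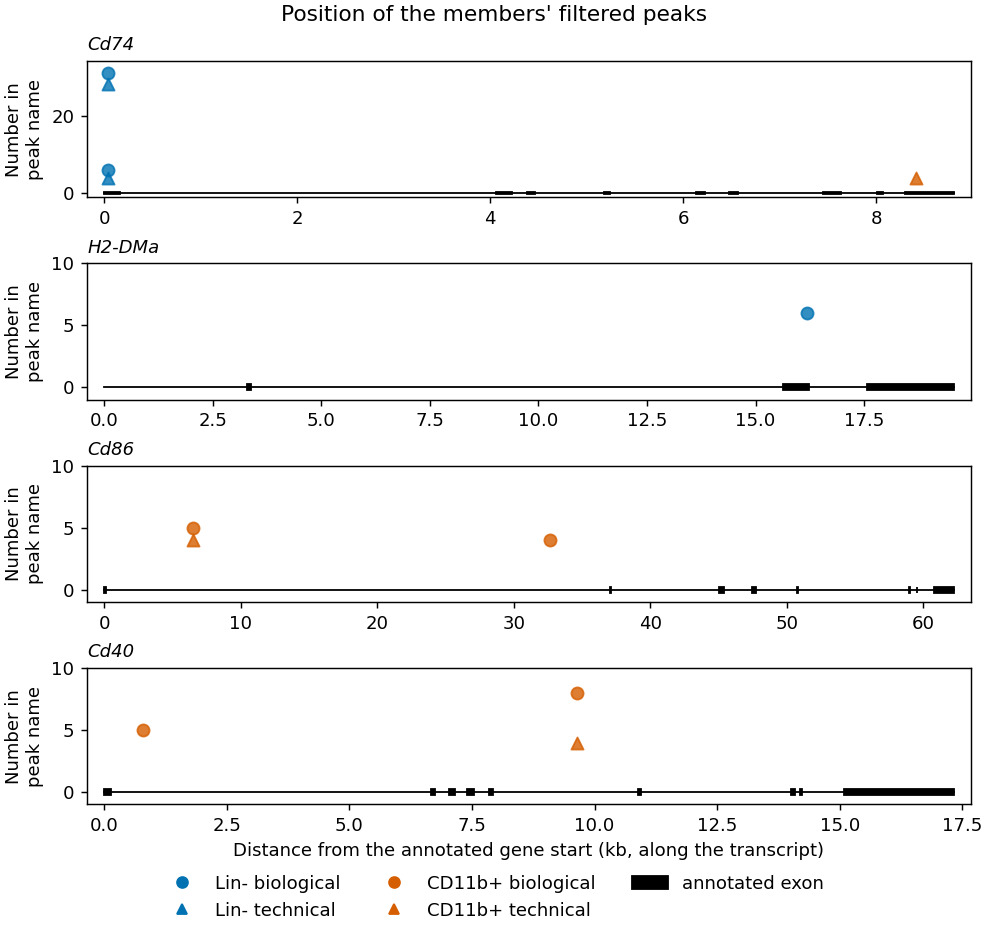
Position of each filtered peak on the 4 members that had one (horizontal axis, kb from the annotated gene start along the transcript) against the number in the peak name, read as reads (vertical axis). Black boxes are annotated exons, circles biological and triangles technical libraries; the Lin- peaks on Cd74 sit at the gene start, and the Cd86 and Cd40 peaks sit in introns.

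The 7 regions comprised 4 in introns, 1 in a coding exon, 1 in a 5′ UTR and 1 in a 3′ UTR. Introns held 78.6% of all Lin- regions and neither of the Lin- member regions, and 84.5% of all CD11b+ regions and 4 of the 5 CD11b+ member regions. None of the 2 Lin- member regions overlapped a CD11b+ region by 1 base or more, and of all regions 24.9% in Lin- and 29.2% in CD11b+ cells overlapped one of the other cell type. Of the member regions only the Cd74 region in the 5′ UTR was found in at least 2 biological libraries, as were 27.3% of all Lin- and 24.3% of all CD11b+ regions of the biological libraries. ACACAC or CACACA, overlapping 6-mers searched on the transcript strand in 50 bases at the centre of a region, was in 1 member region, the CA repeat of Cd86. These letters were in 8.66% of all Lin- windows and 17.2% of all CD11b+ windows. More than 50% of the bases were masked in 57.3% of all CD11b+ regions and 23.5% of all Lin- regions.

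The members' levels spanned a wide range in both tables. Levels between genes are compared as the authors' mean normalized count per kb of annotated exon. The exons of all annotated transcripts of a gene were merged for this length, so the order depends on the annotation. H2-DMa had 2668 merged exon bases and H2-Aa 1128, and before this division the Lin- mean of H2-DMa (2017) was above that of H2-Aa (1777). In the Lin- table the order was Cd74 (3015), H2-Aa (1576), H2-Ab1 (1291), H2-DMa (756), H2-Eb1 (662), H2-DMb1 (487), Cd80 (97.3), Cd86 (82.8), Ciita (49.7) and Cd40 (10.5). In the CD11b+ table H2-DMb1 led with 1166, followed by Cd74 (960), H2-DMa (509), H2-Aa (435), H2-Ab1 (391), H2-Eb1 (217), Cd80 (116), Cd86 (42.1), Cd40 (34.3) and Ciita (10.1). Without library values, neighbours in either order cannot be told apart or shown to differ.

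**Figure D3:**
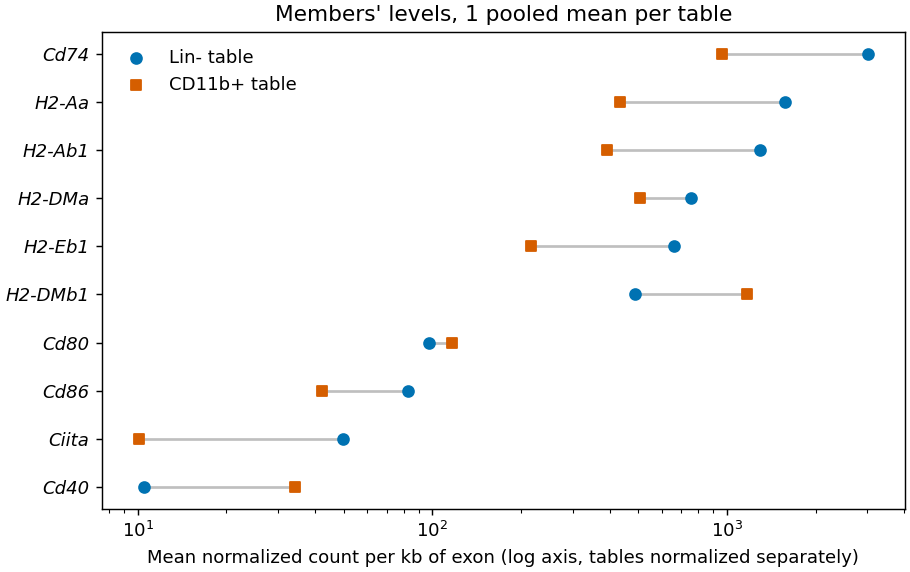
Mean normalized count per kb of exon (log axis) of each member in the Lin- table (circles) and the CD11b+ table (squares), 1 pooled mean over 6 libraries each. Cd74 is the highest in the Lin- table at 3015 and H2-DMb1 in the CD11b+ table at 1166.

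Between the cell types, the pooled means of the class II chains and Cd74 were lower in the CD11b+ table and those of H2-DMb1 and Cd40 higher, without a test. Because the tables were normalized separately, the log2 ratio of the means was centred on its median over 17879 genes, which shifted it by 0.74 (the median of log2 CD11b+ minus Lin- was -0.74). After centring, 1 member was at least 4-fold higher in CD11b+ cells, against 15.5% of all genes, and 0 were at least 4-fold lower, against 9.8%. The median of the members was -0.55 on this log2 scale and that of all genes 0.

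H2-Aa had a mean of 1777 in the Lin- table and 490 in the CD11b+ table, a centred log2 difference of -1.12. H2-Ab1 had means of 1564 and 473 and a difference of -0.98, and H2-Eb1 had 1104 and 361 and a difference of -0.87. Cd74 lay close to these with means of 4269 and 1359 and a difference of -0.91. These 4 values lay between -1.12 and -0.87. Ciita, their transactivator, had means of 408 and 82.9 and the lowest difference of the members, -1.55.

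The H2-DM chains had unlike values. H2-DMa had means of 2017 and 1357, and its difference of 0.17 became -0.16 with totals set equal and -0.57 without centring. H2-DMb1 had means of 683 and 1637 and a difference of 1.999, just under the 4-fold line, which it passed with a pseudocount of 0.5 in place of 1. Its paralog H2-DMb2 was also higher in the CD11b+ table, with means of 278 and 788.

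Of the costimulatory genes, Cd40 had the highest difference of the members, 2.41, with means of 31.4 and 102. Cd80 had means of 360 and 430 and a difference of 0.996. Cd86 had means of 210 and 107 and a difference of -0.23. The direction of the 9 members other than H2-DMa was the same under all 3 scalings.

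In bulk samples, fewer cells of a type and less RNA per cell cannot be told apart. Marker lists of antigen-presenting cells also differed between the tables. The 4 monocyte and macrophage markers that could be compared had a median centred log2 difference of 1.80, with 3 above 0 and Fcgr1 at -1.45, and the list's summed mean was 30148 over 4 genes in the Lin- and 89680 over 5 in the CD11b+ table. The summed mean of 8 dendritic cell markers was 17506 in the Lin- table and 1281 in the CD11b+ table, and 6 of the 7 that could be compared were below 0 after centring, with a median of -2.08. Flt3, also a progenitor gene, and Siglech made up most of the Lin- sum, with 9396 and 5631. Of the B cell markers, Cd79a had pooled means of 5.77 in the Lin- and 146 in the CD11b+ table, and Ms4a1 had 1.10 and 69.1. Pax5 had 28.5 and 102, Cd79b 397 and 433, and Ebf1 101 and 25.4. The summed mean of the T cell markers was 17.6 in each table, over 3 genes for Lin- and 4 for CD11b+. After centring, 3 of 4 stem and progenitor markers (Kit, Cd34 and Meis1) were at least 4-fold lower in CD11b+ cells, against 9.8% of all genes. Myb went the other way, with means of 22676 and 37516 and a centred log2 difference of 1.47. The part of these cell types in the members' levels was not tested.

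Of 20 other genes of the pathway, 13 had a filtered peak in Lin- cells and 10 in CD11b+ cells, over all libraries. Counting biological libraries alone left 10 and 8 of them, with no share of all genes to set beside these. Of all genes, 26.5% had a filtered peak in any Lin- library and 25.6% in any CD11b+ library. At a mean of at least 100 these shares were 51.9% and 47.9%, and the median mean of the 20 genes was 587 and 487. Whether this list differs from genes of like level was not tested. Marchf1, which encodes a ubiquitin ligase that removes class II and CD86 from the surface, had 28 peaks in CD11b+ cells, with 3 and 13 in biological replicates 1 and 2, and 1 in Lin- cells, in a technical library. Its pooled means were 477 in Lin- and 695 in CD11b+ cells. All 14 of its merged CD11b+ regions were intronic, as were 84.5% of all CD11b+ regions. Marchf1 spans 853738 bases, and Cd86, the longest member, spans 62213. The part of gene length in this count was not tested. H2-Ob, a chain of the H2-DM inhibitor H2-O, had 5 Lin- peaks and 0 CD11b+ peaks, and its pooled means were 2419 and 120.

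The factors that act on class II promoters with CIITA also had peaks. Creb1 had 12 across all 6 Lin- libraries and 4 in CD11b+ cells, Nfya had 3 and 5, Nfyb 4 and 2, and Rfx5 3 and 2. Rfxap and Rfxank had 1 in each cell type, that of Rfxank in CD11b+ cells in a technical library, and Nfyc had 2 in Lin- cells alone. Ctss, a protease that degrades the invariant chain, had the highest mean of this list in both tables, 5578 and 3785, and no peak. Ifi30, a lysosomal thiol reductase, had 1 peak in CD11b+ cells, and Ctsl, another protease, had 1 in Lin- cells, both in technical libraries only. Of the other surface ligands, Cd274 had 2 peaks and Icosl 1, both in Lin- cells, and Pdcd1lg2 had 1 in Lin- and 2 in CD11b+ cells. The Icosl peak was in a technical library. Pdcd1lg2 had the lowest mean of the list in the CD11b+ table, 9.54, and H2-Eb2 the lowest in the Lin- table, 9.49.

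For contrast, all 9 class I presentation genes had a filtered peak in both cell types, with 103 peaks (Lin-) and 54 peaks (CD11b+) against 5 and 7 on the 10 members. Of all genes, 26.5% had a filtered Lin- peak and 25.6% a filtered CD11b+ peak. At a mean of at least 1000 the shares were 76.5% and 68.4%. The lowest class I mean was 1781 in the Lin- table and 694 in the CD11b+ table. Whether the lists differ was not tested. H2-K1, a class I heavy chain, had 16 and 7 peaks, B2m, its light chain, 15 and 6, and Tap2, a subunit of the peptide transporter, 20 and 6. These genes were also more abundant, with a median mean of 4932 in Lin- and 2205 in CD11b+ cells against 894 and 452 for the members. The part of this level in the counts was not tested.

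**Figure D4:**
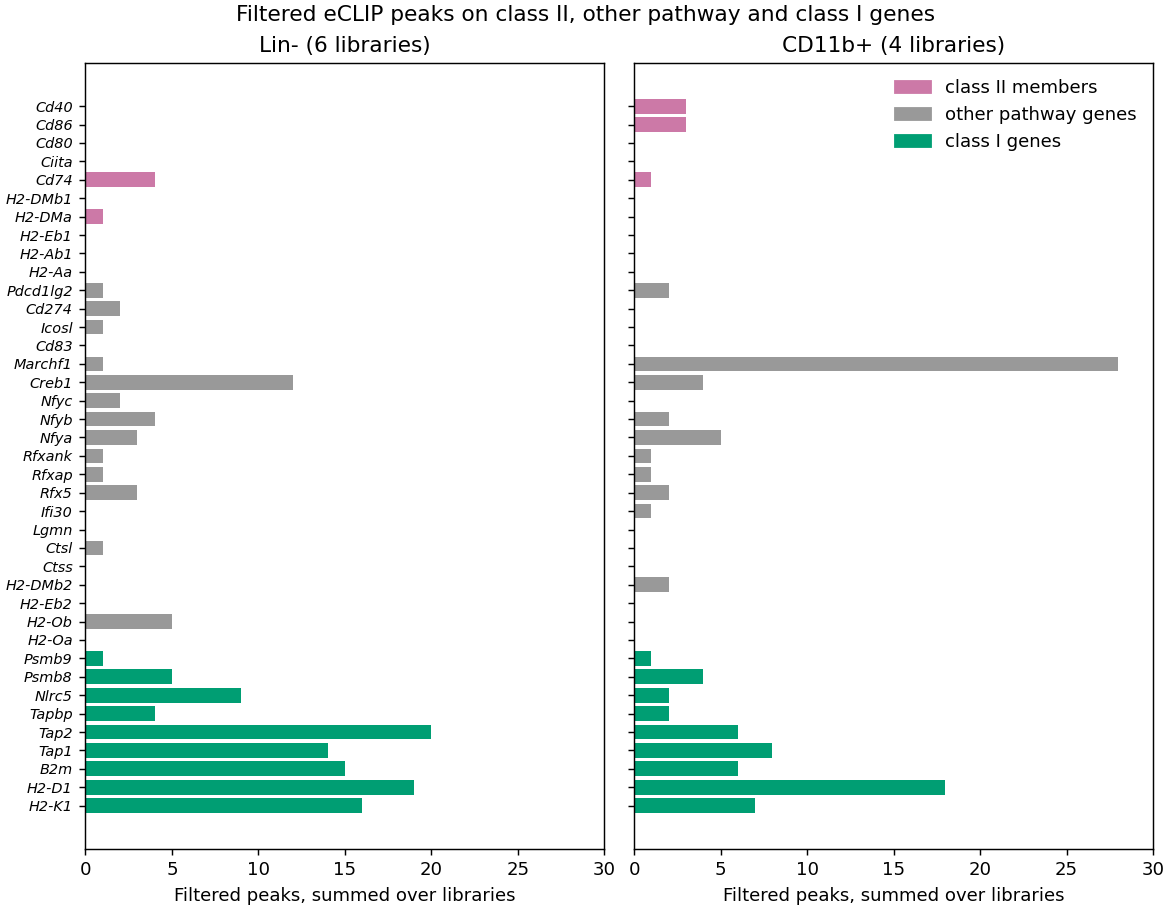
Filtered eCLIP peaks per gene, summed over the 6 Lin- libraries (left) and the 4 CD11b+ libraries (right), for the class II members, the other pathway genes and the class I genes. The members have 5 and 7 peaks in all, the class I genes 103 and 54, and Marchf1, which spans 853738 bases, has 28 in CD11b+ cells. Counts are not adjusted for gene length or level.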

How the data were processed

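Files of 32 samples were analysed. The expression tables deposited by the authors hold 1 row per gene. From them only the pooled mean normalized count was used, a signal that the authors computed with DESeq2 over 6 libraries per cell type. Their other columns hold the authors' comparison of I3KO with WT (fold change, its error, test statistic, p-values) and their peak summaries and class calls, and were not used. Per the labels' processing notes, STAR 2.5.3a and Bowtie2 were used on mm10. Peaks had been called with CLIPper, and the deposited filtered lists keep those that passed the authors' size-matched input filter. Track headers show other settings for the inputs.

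Overlapping peaks on 1 strand were joined into regions within each cell type and placed by midpoint with GENCODE M21 (GRCm38). The annotated coding start was ATG in the RefSeq genome for all 10 members. Levels were compared as log2(mean + 1) for genes with a mean of at least 10 in 1 table. Exact permutation tests over libraries were two-sided on the absolute difference. Scripts were tested on simulated data. Python 3.11.15, pandas 2.3.3, NumPy 2.4.6, SciPy 1.17.1 (exact binomial intervals), pysam 0.24.0 and samtools 1.23.1 were used. All members, and other pathway genes with a peak or at either end of their list's means, are named. Members and lists were chosen with earlier results of these data known. Alternatives were other peak sets, thresholds, scalings, pseudocounts and left-out libraries. Labels do not say which biological library a technical one repeats, so technical libraries entered no test. Same-numbered eCLIP and input libraries share a library name, which is where the pairing comes from; the inputs were all at 0, so deviations could not be correlated. One marker gene and one region's sequence are not reported here.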

Additional observations from a re-analysis of the deposited data

Results flagged for a closer look

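Of 11 sets of library values examined by Dixon's criterion for a sample far from the others, 3 held such a sample. In each, 1 library had a single peak and the others had 0, which fixes the criterion's ratio at 1, so its usual rate of about 1 set in 20 by chance does not hold here. H2-DMa had 0.996 filtered peaks per 10000 in Lin- replicate 2. Marchf1 had 1.54 per 10000 in Lin- replicate 5. Cd74 had 1.32 per 10000 in CD11b+ replicate 3.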

How the results depend on the processing

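Requiring a peak in at least 2 biological libraries left 1 Lin- member and 1 Lin- region (Cd74), and 0 members and 0 regions in CD11b+ cells. With a CLIPper p below 0.001, 1 CD11b+ member and 1 CD11b+ region remained counted (Cd40), and the difference in member share between CD11b+ and Lin- cells reversed to -1.04 per 10000 peaks. Leaving out 1 biological library gave 1 to 2 Lin- members and 1 to 2 Lin- regions, 1 CD11b+ member and 2 CD11b+ regions. The eCLIP against input difference ranged from 1.11 to 1.63 per 10000 when 1 library was left out, and lost the threshold without any 1 of 4 of the 5. The inputs held too few peaks for a lower share in them to be detected, so this threshold cannot decide whether the shares differ. With the replicate block, that is, each eCLIP library paired to its own input, the difference was 1.30 (p = 0.125 by the exact sign-flip test, where 0.0625 is the smallest possible). The share of genes with a peak was 51.9% and 76.5% in Lin- cells, and 47.9% and 68.4% in CD11b+ cells, for means of at least 100 and 1000, levels chosen after seeing the data. Past 4-fold higher in CD11b+ cells were 0 members without centring, and 2 with a mean of at least 50 or a pseudocount of 0.5; past 2-fold were 2. Past 4-fold lower was 1 member without centring (Ciita), and past 2-fold 2. The shares of all genes, 15.5% higher and 9.8% lower, are for the centred 4-fold line only. Without centring the median of all genes was itself -0.74. No share of all genes is given for these alternatives, so whether their counts are unusual cannot be read from them. A CA 6-mer was in 2 regions when the whole region was searched, the Cd86 repeat and the Cd74 region in the 5′ UTR. No share of all regions is given for that search. CACA was in 21.7% of all Lin- windows of 50 bases and in 24.1% of all CD11b+ windows. Of the member windows it was in 2, those of the Cd86 repeat and of the Cd74 region in the 3′ UTR. The latter region is 35 bases long, and its CACA lay in the window but not within the region. Leaving out 1 biological library gave differences between CD11b+ and Lin- cells of 0.597 to 1.59 per 10000, all in the same direction. Apart from the values above, no alternative moved a count of members or regions by over 1.5 times. The causes were not tested. The few peaks per member, the pooled means and the low number of biological libraries limit all of these values.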
